A study of Mus musculus with 90 samples.

Results

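Acyl-CoA thioesterases are enzymes that split an acyl-CoA into the free fatty acid and coenzyme A. Here 6 of their genes, Acot1, Acot2, Acot3, Acot4, Acot8 and Acot12, were followed in mouse liver around the first meal of the night. The members were chosen by gene symbol and not by a cut on a measured value, but with earlier results of these data known. Each is represented by the RefSeq identifier with the highest mean level over all RNA libraries, so that 6 of 24308 gene symbols in the expression table were described. Acot3 was the only member listed under more than 1 identifier, and the 2 identifiers had mean levels of 11.5 and 11.2 RPKM. RPKM is a read count scaled by transcript length and by library depth.

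Fatty acids enter hepatic metabolism as acyl-CoA, and the acyl-CoA thioesterases oppose the acyl-CoA synthetases that form it. The proteins are kept in different compartments. Acot1 is cytosolic and Acot2 is mitochondrial, and both act on long-chain acyl-CoA. Acot3 and Acot4 are peroxisomal, and Acot4 acts on succinyl-CoA. Acot8 is a peroxisomal enzyme with a broad range of substrates and is not closely related in sequence to the others. Acot12 hydrolyses acetyl-CoA in the cytosol. Several of the genes are known targets of PPARα, the fatty acid receptor that drives fat oxidation in the fasted liver.

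All mice were trained to night-restricted feeding (NRF), and livers were taken at zeitgeber time (ZT, hours after lights on) 10 or 14, with food given or withheld from ZT12. NRF mice were wild-type C57BL/6 sampled at ZT10, ZT14-unfed and ZT14-fed, with 2 libraries per group. Wild-type mice of a further experiment were injected before lights off with vehicle (PBS), with 1 mg/kg of the synthetic glucocorticoid dexamethasone (dex), with the insulin receptor antagonist S961 or with both, and were then fed. A group of vehicle-injected mice was left unfed, and each of these 5 groups had 4 libraries. The NRF, injected and L-IRSdKO mice were 10 weeks old, and the S961 dose is given per mouse in the labels and per body weight in the methods. Liver GR knockout mice (L-GRKO) carried floxed alleles of Nr3c1, the glucocorticoid receptor (GR) gene, and an AAV that expresses Cre from the hepatocyte-specific Tbg promoter. Their controls carried the same floxed alleles and AAV-GFP, and all 8 mice were unfed at ZT14. Mice lacking the insulin receptor substrates in liver (L-IRSdKO) carried floxed Irs1 and Irs2 and Alb-Cre. Their controls carried the floxed alleles without Cre, and all 8 mice received dex and were fed, so that a dex effect is shared by both groups. Mice with diet-induced obesity had been on a high-fat diet for 10 weeks, from an age of 5 weeks, and lean mice on chow, and each was sampled unfed and fed at ZT14 with 3 libraries per group. The labels give C57BL/6 for all experiments, while the methods give C57BL/6N for the NRF, injected and L-GRKO mice and C57BL/6J for the L-IRSdKO mice, so that strain and experiment cannot be told apart between experiments.

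The 54 RNA libraries fell into these 5 experiments. Their estimated depths were 25.9 to 37.9 M reads in the NRF mice, 6.42 to 13.4 M reads in the injected mice and 16.8 to 61.8 M reads in the obesity experiment. For the L-GRKO and L-IRSdKO experiments no reliable estimate was had from the values, and none is given. NRF libraries were made after ribosome depletion and the others from polyA RNA. In the L-IRSdKO experiment the 100 most abundant genes held 11.1% to 12.4% of the summed RPKM, against 42.4% to 55.4% elsewhere, and Alb was at 650 to 914 RPKM against at least 18853 RPKM elsewhere. Conditions were therefore tested within an experiment only, and ranges over all libraries mix these differences between experiments with those between conditions. The 5 hepatocyte markers summed to 2055 to 2519 RPKM in the L-IRSdKO experiment and to at least 27267 RPKM elsewhere, and the 4 adipocyte markers summed to at most 3.96 RPKM. In these whole-liver samples fewer cells of a type and less RNA per cell cannot be told apart.

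The first 4 members lie side by side, on the plus strand of chromosome 12 (mm9), and the sequence they share bears on every level below. Acot2 (chr12:85328811-85334823), Acot1 (chr12:85350448-85358621), Acot4 (chr12:85379329-85385673) and Acot3 (chr12:85393094-85400515) span 71.7 kb, with Acot5 and Acot6 further along the same strand. The coding sequences of Acot1 and Acot2 were identical at 95.2% of 1239 aligned bases, with an identical run of 273 bases. Acot1 and Acot3 were identical at 83.9%, Acot1 and Acot4 at 76.4%, and Acot3 and Acot4 at 76.0% of their aligned bases. The following 90-base stretches of the last coding exon, read from the mm9 genome and written 5′ to 3′ on the plus strand, show how far a sequencing read can tell the 4 genes apart. Capitals mark the bases that differ from Acot1.
Acot1: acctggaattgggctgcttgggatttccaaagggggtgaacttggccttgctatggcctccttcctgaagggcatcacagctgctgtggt
Acot2: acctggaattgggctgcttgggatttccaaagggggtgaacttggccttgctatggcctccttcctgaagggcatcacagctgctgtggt
Acot3: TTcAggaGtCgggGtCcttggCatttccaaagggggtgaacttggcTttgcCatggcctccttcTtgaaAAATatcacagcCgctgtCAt
Acot4: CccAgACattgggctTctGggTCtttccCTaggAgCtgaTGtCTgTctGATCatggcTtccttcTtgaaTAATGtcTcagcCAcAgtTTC
The Acot2 stretch differed from that of Acot1 at 0 of 90 bases, the Acot3 stretch at 18 and the Acot4 stretch at 35.

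Over whole transcripts, 47.3% of the 50-base windows of Acot1 also occurred in a transcript of another gene, 527 of them in Acot2. The share was 27.7% for Acot2, 10.2% for Acot3, 12.1% for Acot4 and 0% for Acot12, which lies alone on chromosome 13 (chr13:91881117-91925753, plus strand). For Acot8 (chr2:164618268-164630382, minus strand) the share was 17.7%, all with Snx21, a gene that overlaps Acot8 on the opposite strand. How the authors' counting treated reads that fit more than 1 place, or the strand of a read, is not given in the sources used here, so the levels of Acot1, Acot2 and Acot8 are uncertain by the reads they share. The sum of Acot1 and Acot2 is less exposed to reads shared between these genes and is given beside the results it bears on. Since Acot1 had the higher mean in each group, the sum mostly follows Acot1 and is no check of Acot2 alone. It does not remove reads shared with other genes, such as the 171 windows that Acot1 shares with Acot3.

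Acot12 had the highest mean level of the members in each of the 16 groups and Acot2 the lowest. Over all libraries of the 5 experiments, Acot12 ran from 30.8 to 115 RPKM and Acot3 from 0.51 to 55.3 RPKM. Acot1 ran from 3.21 to 85.6, Acot2 from 0.53 to 14.3, Acot4 from 5.90 to 49.0 and Acot8 from 4.84 to 29.1 RPKM. Acot2 was measured from few reads, an estimated 12 to 215 per library in the injected mice.

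The order of the members between these ends changed with the condition. In fed vehicle-injected mice (mean ± SD, n = 4) Acot12 was at 56.4 ± 6.07 RPKM, Acot4 at 12.9 ± 5.76, Acot1 at 11.6 ± 3.19, Acot8 at 8.40 ± 1.26, Acot3 at 4.01 ± 2.96 and Acot2 at 0.90 ± 0.29. The libraries of Acot4, Acot1 and Acot8 overlapped in that group, and the lowest Acot4 library (6.50 RPKM) lay below the highest Acot3 library (7.43 RPKM). In L-GRKO mice Acot3, at 40.6 ± 15 RPKM, had moved from the fifth to the second place and overlapped Acot12 at 51.4 ± 6.89, Acot4 at 38.9 ± 11.2 and Acot1 at 30.7 ± 24.6 RPKM. Acot12 made up 28.5% of the summed mean level there and 53.6% in the controls, and Acot3 22.5% and 2.76%. Over the 16 groups Acot12 held its largest share, 67.2%, in the injected wild-type mice given dex and food, and 45.1% in the L-IRSdKO controls, which also received dex and food.

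**Figure D1:**
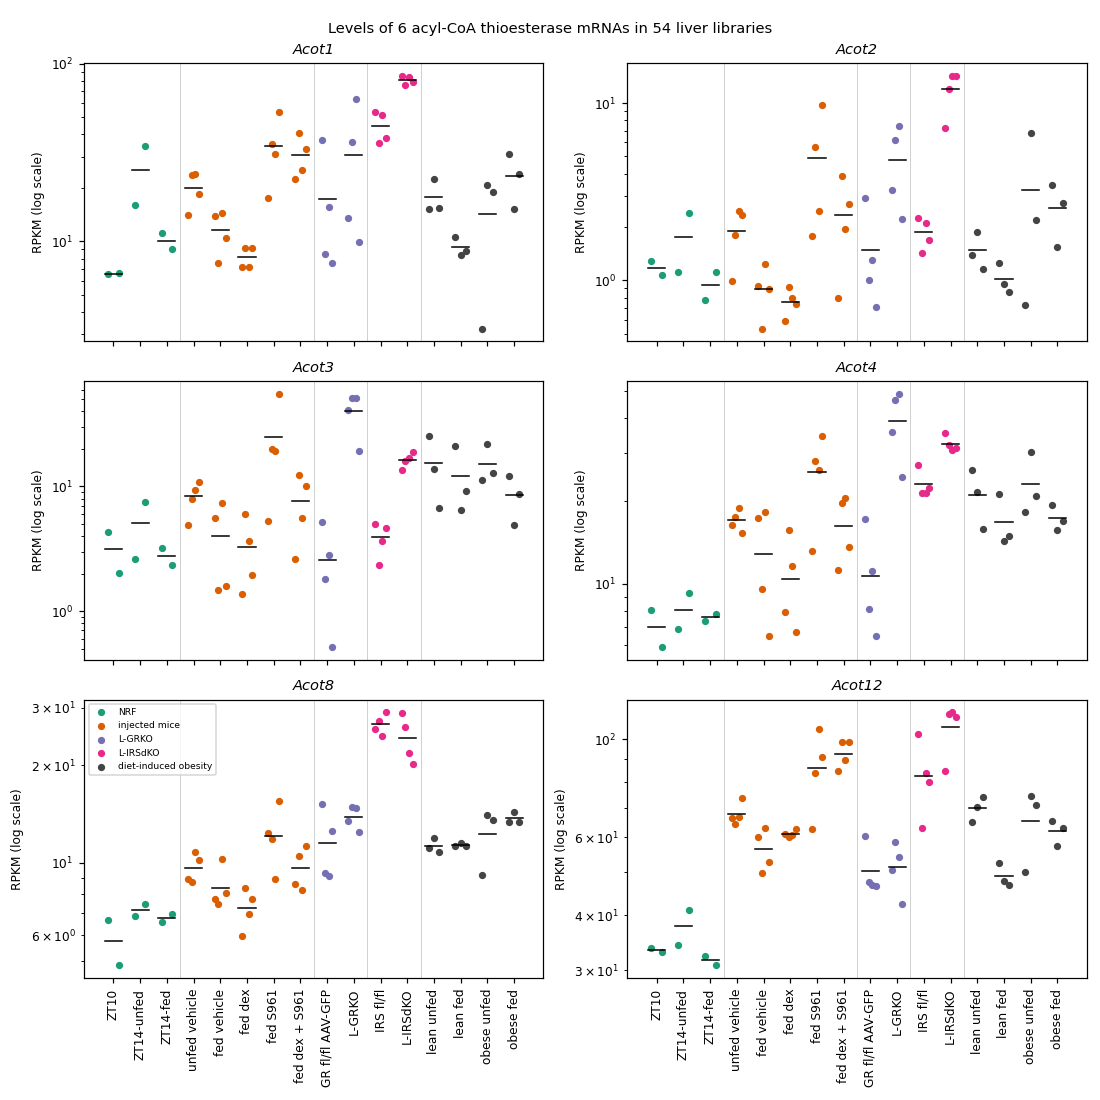
RPKM of the 6 members (1 panel each, log scale) in each liver library, grouped by condition and coloured by experiment, with horizontal bars at the group means. Acot3 in L-GRKO mice (19.3 to 51.4 RPKM) lies above every control library (0.51 to 5.21 RPKM), and Acot2 in L-IRSdKO mice (7.21 to 14.3 RPKM) lies above its controls (1.43 to 2.25 RPKM).

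**Figure D2:**
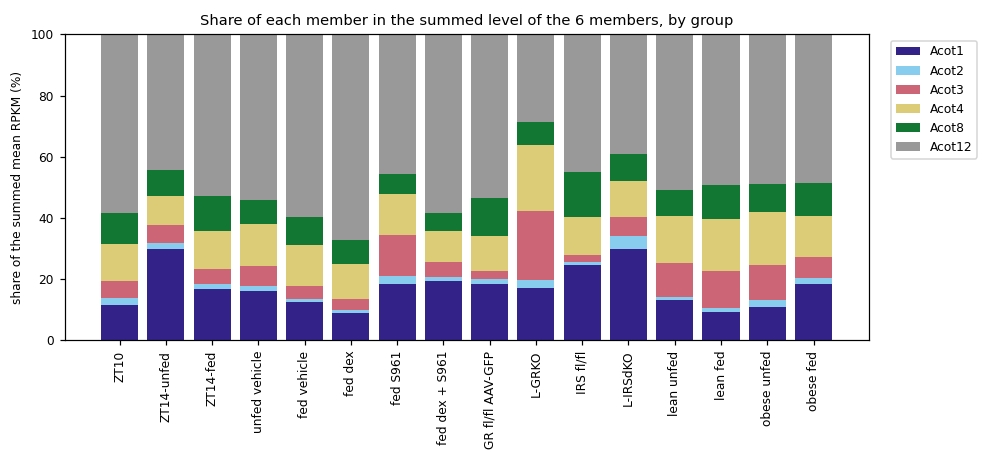
Share of each member, in percent, in the summed mean RPKM of the 6 members for each of the 16 groups, as stacked bars. Acot12 is the largest share in every bar, from 28.5% in L-GRKO mice to 67.2% in the injected wild-type mice given dex and food.

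The transition from ZT10 to ZT14 without food was accompanied by a higher level of Acot1, the cytosolic long-chain enzyme. Acot1 was at 6.52 and 6.65 RPKM at ZT10, at 16.1 and 34.4 RPKM at ZT14-unfed and at 11.1 and 9.02 RPKM at ZT14-fed. The ZT14-unfed libraries were above all others, although they differed from each other more than the other pairs did. Acot1 rose 3.40-fold from ZT10 to ZT14-unfed (log2 1.76 ± 0.30 SE, adjusted p = 0.0193, limma), and was the only member called of 6, against 8.99% of the 10904 genes tested in either direction and 1.98% higher. Groups did not overlap for Acot1, Acot8 and Acot12, as for 56.2% of all genes with 2 libraries per group. The call was lost without either ZT10 library (adjusted p = 0.0921 and 0.0842, where the lone sample is assumed to vary like the other groups) and without a filter on low genes (0.0849). The sum of Acot1 and Acot2 rose by 1.64 on the log2 scale (adjusted p = 0.0225). The 5 hepatocyte markers summed to 29718 to 29844 RPKM at ZT10 and to 33945 to 34751 RPKM at ZT14-unfed, and their part in the result was not tested.

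No member passed the threshold between ZT14-fed and ZT14-unfed livers, where 6.76% of genes did. An unadjusted p under 0.05 was found for 1 member, Acot1, and for 3020 of 10904 genes. The difference for Acot1 was −1.20 ± 0.30 (log2, adjusted p = 0.0601, limma), where the median of all genes was 0.12. It depended on the lower of the ZT14-unfed libraries, without which the differences were −1.73 for Acot1 and −1.01 for Acot2. That fit leaves a lone ZT14-unfed library, the higher one, whose own spread is not measured. Acot12, the acetyl-CoA hydrolase, was at 33.6 and 32.9 RPKM at ZT10, 34.3 and 41.1 at ZT14-unfed and 32.4 and 30.8 at ZT14-fed. These groups did not overlap between unfed and fed livers at ZT14, which was also so for 59.7% of all genes. Hepatocyte markers summed to 27267 to 30467 RPKM in ZT14-fed and 33945 to 34751 RPKM in ZT14-unfed livers. Endothelial markers summed to 45.9 to 51.2 and 54.8 to 59.0 RPKM, and stellate cell markers to 60.0 to 66.7 and 70.1 to 73.7 RPKM. The part of these markers was not tested. In the same comparison 3 of 28 tested genes of a PPARα list were called, all lower, against 6.76% of all genes in either direction. They were Angptl4 (−2.70), an inhibitor of lipoprotein lipase, and the fatty acid ω-hydroxylases Cyp4a14 (−2.58) and Cyp4a10 (−1.16).

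In the injected mice, food alone gave no called member when fed and unfed vehicle groups were compared (3.13% of 11248 genes called). An unadjusted p under 0.05 was found for 2 members and for 2174 of all genes. Acot1 was at 14.1, 23.6, 24.1 and 18.5 RPKM in the unfed and at 13.8, 7.58, 14.4 and 10.4 RPKM in the fed vehicle libraries. A single fed library lay above the lowest unfed library, and the difference was −0.78 ± 0.28 (log2, adjusted p = 0.126, limma). Acot12 was at 66.5, 64.4, 66.5 and 73.5 RPKM in the unfed and at 60.0, 49.9, 62.9 and 52.8 RPKM in the fed libraries. These did not overlap, as for 13.5% of genes, and the difference was −0.27 ± 0.12 (adjusted p = 0.235). All 6 members had a lower mean in fed than in unfed vehicle mice, with a median difference of −0.63 on the log2 scale against 0.10 over all genes. Of 29 PPARα list genes 1 was called, Angptl4, which was lower. The summed level of 5 Kupffer cell markers was 84.9 to 96.7 RPKM in fed and 55.8 to 63.5 RPKM in unfed vehicle mice, and its part was not tested.

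Dex given before the meal gave no called member either, against 3.19% of genes called. An unadjusted p under 0.05 was found for 0 members and for 2085 of 11248 genes. Acot1 was at 7.18, 9.11, 7.14 and 9.12 RPKM in the fed dex libraries, a narrow range that overlapped the fed vehicle libraries (−0.45 ± 0.28, adjusted p = 0.412, limma). Acot12, at 61.0, 59.9, 60.8 and 62.7 RPKM, also overlapped its control (0.12 ± 0.12, adjusted p = 0.649). For Acot3 the 95% interval of the difference was −1.45 to 1.11 on the log2 scale, which holds a 2-fold change in either direction. Of 29 PPARα list genes 2 were called with dex, Vnn1 and Plin2, both lower.

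Blocking the insulin receptor with S961 during the meal was accompanied by higher levels of 3 of 6 members, Acot1, Acot2 and Acot12, against 1.89% of genes called in either direction and 0.933% higher. All 6 members had a higher mean and an unadjusted p under 0.05, a p that 1604 of 11248 genes reached in either direction. Acot1 was at 17.5, 35.2, 31.2 and 53.7 RPKM in the S961 libraries, each above the highest fed vehicle library (14.4 RPKM). Acot1 rose 2.77-fold (log2 1.47 ± 0.28, adjusted p = 0.00927, limma). Acot2, the mitochondrial enzyme, was at 0.93, 0.53, 1.24 and 0.89 RPKM with vehicle and at 1.78, 5.67, 2.46 and 9.71 RPKM with S961, again without overlap. It rose 3.31-fold (log2 1.73 ± 0.39, adjusted p = 0.0281). Groups without overlap were found for 6.48% of all genes in this comparison. The sum of Acot1 and Acot2 rose by 1.54 on the log2 scale (adjusted p = 0.00929).

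Acot12 was at 62.7, 84.0, 106 and 91.0 RPKM with S961, and 1 of these libraries lay within the range of the vehicle group. It rose 1.5-fold (log2 0.58 ± 0.12, adjusted p = 0.0151, limma). Acot3 was at 5.55, 1.49, 7.43 and 1.58 RPKM with vehicle and at 5.27, 19.9, 19.4 and 55.3 RPKM with S961. Only the first S961 library overlapped the vehicle group, and the fitted difference was the sixth highest of all genes tested (log2 2.34 ± 0.61), but it missed the threshold (adjusted p = 0.0561). Acot4 (0.99 ± 0.32, adjusted p = 0.141) and Acot8 (0.49 ± 0.15, adjusted p = 0.114) were not called.

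The S961 calls did not all stand when the libraries were taken apart. The fourth library of each injected group carries a library number from a separate range in its sample description. What the number stands for is not stated, and within the first 3 libraries of each group no member was called for S961. The differences there were 1.19 for Acot1 (adjusted p = 0.0659, limma), 1.34 for Acot2 (0.128), 1.54 for Acot3 (0.259) and 0.52 for Acot12 (0.0887), all still above 0. Fitted with the S961 and vehicle groups alone, Acot1 (adjusted p = 0.129), Acot2 (0.175) and Acot12 (0.248) were not called. Acot1 stayed called with any single library left out. Acot2 lost its call without vehicle library 1 or 2 or S961 library 2 or 4 (adjusted p = 0.0676, 0.104, 0.0994 and 0.0946) and without a filter on low genes (0.0532), and Acot12 without vehicle library 2 or S961 library 4 (0.0682 and 0.0556). Acot3 was called without vehicle library 3 or S961 library 1 (0.0446 and 0.00993). Acot4 was called without S961 library 1 (0.0383) and Acot8 without S961 library 3 (0.0323). The summed level of 5 Kupffer cell markers was 41.5 to 72.4 RPKM with S961 and 84.9 to 96.7 RPKM with vehicle, and its part in these results was not tested.

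Dex combined with S961 gave higher levels of 2 members, Acot1 and Acot12, against 10.6% of genes called in either direction and 2.69% higher and a median of −0.14 over all genes. Acot1 was at 22.6, 40.9, 25.3 and 33.2 RPKM and rose 2.58-fold over fed vehicle (log2 1.37 ± 0.28, adjusted p = 0.00387, limma). Acot12 was at 84.6, 98.6, 89.6 and 98.4 RPKM and rose 1.64-fold (log2 0.72 ± 0.12, adjusted p = 0.00113). Neither group overlapped its vehicle group, as for 17.1% of genes. Both calls remained within the first 3 libraries of each group (Acot1 1.28, adjusted p = 0.018, and Acot12 0.66, adjusted p = 0.0117) and with any single library left out. The 5 Kupffer cell markers summed to 55.0 to 75.6 RPKM with dex and S961, below the fed vehicle libraries (84.9 to 96.7 RPKM), and their part in these calls was not tested.

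The cluster members did not all do the same under the combination. Acot3 was at 2.59, 12.3, 5.60 and 10.2 RPKM with dex and S961, values that overlapped both the vehicle group (0.93 ± 0.61, adjusted p = 0.369, limma) and the S961 group. Acot2 was at 0.79, 3.86, 1.96 and 2.71 RPKM (0.91 ± 0.39, adjusted p = 0.149). The test of whether the S961 effect differed with dex called 0 of 11248 genes (513 with an unadjusted p under 0.05) and no member, with −1.25 ± 0.86 for Acot3, −0.68 ± 0.56 for Acot2 and 0.01 ± 0.17 for Acot12. The dex, S961 and combined comparisons share their fed vehicle libraries, so their values are given side by side only. Against unfed vehicle mice, fed mice with dex and S961 gave no called member, where 2.32% of genes were called. For 2 members, and for 1330 of 11248 genes, the unadjusted p was under 0.05. Acot12 was closest (0.45 ± 0.12, adjusted p = 0.0596) and its groups did not overlap (10.6% of genes).

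Of all genes 0.933% rose with S961, and their median difference was −0.08 on the log2 scale. Among other genes of fatty acid metabolism, 7 of 29 PPARα list members rose, where the list median was 0.43. Among them were Fgf21 (2.53), a fasting hormone of the liver, Angptl4 (1.64), the lipid droplet coat gene Plin2 (1.52), the peroxisomal β-oxidation gene Ehhadh (1.32) and Pex11a (0.65), which acts in peroxisome division. Of 10 acyl-CoA synthetase genes, Acsl1 (0.65) and Slc27a2 (0.39) rose. None of 6 tested other thioesterase genes was called.

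In L-GRKO livers the peroxisomal members in the cluster, Acot3 and Acot4, rose. Nr3c1 itself was at 3.93 to 5.35 RPKM in L-GRKO and 12.8 to 16.2 RPKM in control livers (−1.58 ± 0.12, adjusted p = 6.83e-05, limma). Acot3 was at 5.21, 1.80, 2.84 and 0.51 RPKM in the controls and at 40.9, 51.4, 50.9 and 19.3 RPKM in L-GRKO livers. The lowest knockout library was above the highest control by a wide margin. Acot3 rose 14.9-fold (log2 3.90 ± 0.47, adjusted p = 0.00109, limma), the highest log2 fold change of all 11646 genes tested in this experiment. Acot4 was at 17.2, 8.13, 11.1 and 6.47 RPKM in the controls and at 35.7, 46.5, 49.0 and 24.4 RPKM in L-GRKO livers. These did not overlap either, and Acot4 rose 3.61-fold (log2 1.85 ± 0.28, adjusted p = 0.00425), the eleventh highest change.

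These 2 members were called against 6.68% of genes in either direction and 4.46% higher, and groups without overlap were seen for 12.8% of genes. Both stayed called with any single library left out. Acot2 was at 2.93, 1.00, 1.30 and 0.71 RPKM in the controls and at 3.23, 6.18, 7.41 and 2.22 RPKM in L-GRKO livers. The groups overlapped, and its difference (1.39 ± 0.38) missed the threshold (adjusted p = 0.0519, limma). Without control library 1, the highest of its group, or knockout library 4, the lowest, Acot2 was called (adjusted p = 0.0199 and 0.0204).

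Acot1, whose libraries overlapped between the genotypes, was not called. It was at 37.4, 8.46, 15.5 and 7.54 RPKM in the controls and at 13.6, 36.3, 63.1 and 9.93 RPKM in L-GRKO livers (0.74 ± 0.60, adjusted p = 0.553, limma, 95% interval −0.58 to 2.06). Its sum with Acot2 was not called (0.86, adjusted p = 0.461). Acot8 was at 15.1, 9.32, 9.12 and 12.5 RPKM in the controls and at 13.5, 14.8, 14.7 and 12.4 RPKM in L-GRKO livers (0.28 ± 0.15, adjusted p = 0.348). Acot12 was at 60.4, 47.5, 46.8 and 46.4 RPKM in the controls and at 50.5, 58.5, 54.2 and 42.3 RPKM in L-GRKO livers (0.03 ± 0.12, adjusted p = 0.928, 95% interval −0.24 to 0.30).

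The PPARα list had a median difference of 0.45 in L-GRKO livers against 0.08 over all genes, of which 4.46% rose. Of the 29 list genes 8 rose and none fell. They were Cyp4a10 (2.46), Cyp4a31 (1.61), the peroxisomal transporters Abcd2 (2.19) and Abcd3 (0.84), the pantetheinase gene Vnn1 (1.65), the peroxisomal thiolase Acaa1b (1.46), Plin2 (0.98) and Ehhadh (0.68). Acot13, a thioesterase outside the cluster, rose by 0.47 and was the only one of 6 other thioesterases called. Acot5, the neighbour of Acot3, reached at most 0.75 RPKM in any library. The summed level of 3 red blood cell markers was 331 to 623 RPKM in L-GRKO and 223 to 289 RPKM in control livers, and that of 4 stellate cell markers 47.4 to 70.3 and 32.9 to 50.1 RPKM. The part of these in the results was not tested.

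In L-IRSdKO livers all 4 members in the cluster rose. Irs1 was at 0.15 to 0.32 RPKM in the knockout and 2.21 to 4.73 RPKM in the control libraries (−2.66 ± 0.25, adjusted p = 0.000917, limma). Irs2 was at 0.27 to 1.00 and 0.61 to 5.61 RPKM and was not called (adjusted p = 0.308). Acot2 was at 2.25, 1.43, 2.10 and 1.70 RPKM in the controls and at 7.21, 12.1, 14.2 and 14.3 RPKM in L-IRSdKO livers. It rose 5.14-fold (log2 2.36 ± 0.23, adjusted p = 0.000917). Acot3 was at 5.00, 2.33, 3.63 and 4.62 RPKM in the controls and at 13.5, 16.02, 16.8 and 18.9 RPKM in L-IRSdKO livers, and rose 3.92-fold (log2 1.97 ± 0.21, adjusted p = 0.00153).

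Acot1 was at 53.4, 35.8, 51.8 and 38.0 RPKM in the controls and at 85.6, 75.4, 84.4 and 79.4 RPKM in L-IRSdKO livers, a 1.83-fold rise (log2 0.87 ± 0.14, adjusted p = 0.00527, limma). The sum of Acot1 and Acot2 rose by 1.01 (adjusted p = 0.00342). Acot4 was at 27.1, 21.5, 21.5 and 22.4 RPKM in the controls and at 35.4, 31.9, 30.7 and 31.1 RPKM in L-IRSdKO livers, a 1.39-fold rise (log2 0.48 ± 0.10, adjusted p = 0.0127). For each of the 4 genes the lowest knockout library was above the highest control. Groups did not overlap, in either direction, for 21.7% of all genes in this experiment. In the test 17.4% of genes were called in either direction, with 9.04% of genes higher. Each of these 4 calls remained with any single library left out.

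The members outside the cluster were not called. Acot8 was at 25.9, 27.4, 24.6 and 29.1 RPKM in the controls and at 28.8, 26.2, 21.7 and 20.2 RPKM in L-IRSdKO livers (−0.15 ± 0.12, adjusted p = 0.427, limma). Acot12 was at 103, 62.9, 83.7 and 80.1 RPKM in the controls and at 84.9, 114, 115 and 112 RPKM in L-IRSdKO livers (0.38 ± 0.15, adjusted p = 0.119). Its first knockout library stood below the other 3, and without it Acot12 was called (0.49, adjusted p = 0.0383).

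In the same comparison the PPARα list had a median of 0.23 against 0.03 over all genes, of which 9.04% rose. Of the 29 list genes 14 rose and 1, Creb3l3, fell. Among those that rose were Pdk4 (3.56), which restrains glucose oxidation, Cyp4a31 (2.61), Abcd2 (1.93), Cyp4a14 (1.75), Ehhadh (0.80), the carnitine acyltransferase genes Crat (0.89) and Cpt1a (0.45), and Angptl4 (0.34). Of 7 other thioesterase genes, Acot13 rose (0.32), while Acot11 (−2.14) and Baat (−0.33), which conjugates bile acids, fell. The summed level of 5 Kupffer cell markers was 285 to 329 RPKM in L-IRSdKO and 172 to 288 RPKM in control livers, that of 5 endothelial markers 108 to 143 and 88.9 to 116, and that of 4 stellate cell markers 108 to 128 and 89.3 to 109 RPKM. That of 4 pancreas markers was 2.34 to 10.5 and 0.30 to 2.57 RPKM. Without overlap, 4 cholangiocyte markers summed to 1.65 to 2.91 RPKM in L-IRSdKO and 3.44 to 5.43 RPKM in control livers, and 3 red blood cell markers to 58.7 to 85.8 and 85.9 to 148 RPKM. The part of these in the results was not tested.

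In lean mice of the obesity experiment the meal was accompanied by a lower level of Acot12. It was at 64.8, 70.3 and 73.9 RPKM in unfed and at 52.5, 47.6 and 46.8 RPKM in fed lean mice, without overlap (as for 43.3% of genes). Acot12 fell 1.42-fold (log2 −0.50 ± 0.13, adjusted p = 0.0199, limma) and was the only member called, against 23.4% of genes in either direction and 7.28% lower. The call was lost without unfed library 2 or 3 or fed library 2 or 3 (adjusted p between 0.0571 and 0.0661). Acot1 was at 15.3, 22.5 and 15.4 RPKM unfed and at 10.6, 8.33 and 8.83 RPKM fed. These did not overlap, but the spread taken from all 4 groups left the difference uncalled (−0.89 ± 0.54, adjusted p = 0.264), and it was called when only the lean groups were fitted (adjusted p = 0.00882). Of 29 PPARα list genes 7 fell with the meal in lean mice and none rose, against 7.28% of all genes lower. The 7 were Ppara, Cpt1a, Cyp4a10, Cyp4a14, Cyp4a31, Pdk4 and Angptl4. Endothelial markers summed to 54.3 to 65.6 RPKM in unfed and 39.3 to 46.3 RPKM in fed lean livers. Stellate cell markers summed to 56.5 to 92.9 and 40.5 to 54.5 RPKM. Their part was not tested.

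In obese mice no member was called between fed and unfed livers, against 7.65% of genes. An unadjusted p under 0.05 was found for 0 members and for 2878 of 11431 genes. Acot12 was at 50.1, 74.5 and 71.0 RPKM in unfed and at 65.4, 57.4 and 62.9 RPKM in fed obese mice (−0.05 ± 0.13, adjusted p = 0.841, limma). Acot1 was at 3.21, 20.7 and 19.0 RPKM unfed and at 31.1, 15.3 and 23.9 RPKM fed (1.00 ± 0.54, adjusted p = 0.28). The first of these unfed libraries stood apart from the other 2 of its group. It held 79.5 RPKM of Fasn, the fatty acid synthase, against 12.6 and 9.97 RPKM. Without it the meal difference of Acot1 in obese mice was 0.18 (adjusted p = 0.723, limma). Of 29 PPARα list genes 0 were called between fed and unfed obese livers with all libraries.

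Whether the meal effect differed between obese and lean mice was tested directly, and no member was called, against 0.744% of genes. Of 11431 genes 1713 had an unadjusted p under 0.05. Acot1 had a difference of 1.88 ± 0.76 (unadjusted p = 0.0306, adjusted p = 0.281 over all genes, limma) and Acot12 one of 0.45 ± 0.19 (0.0355 and 0.296). Without the obese unfed library that stood apart these were 1.07 (adjusted p = 0.151) and 0.27 (adjusted p = 0.275). In the same test Angptl4 (2.49) and Them4 (1.29), a further acyl-CoA thioesterase, were called.

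Fed obese livers had higher values than fed lean livers for several members, but none was called, against 0.507% of genes. An unadjusted p under 0.05 was found for 2 members and for 2283 of 11431 genes. The 2 groups did not overlap for Acot1, Acot2, Acot8 and Acot12, which was also so for 32.6% of all genes. Acot1 was at 31.1, 15.3 and 23.9 RPKM in obese and at 10.6, 8.33 and 8.83 RPKM in lean fed mice (1.25 ± 0.54, adjusted p = 0.23, limma). Acot2 was at 3.43, 1.55 and 2.74 against 1.25, 0.95 and 0.87 RPKM (0.97 ± 0.49, adjusted p = 0.297). Acot12, with the values given above, differed by 0.33 ± 0.13 (adjusted p = 0.199). When only these 2 groups were fitted, Acot1 (adjusted p = 0.03) and Acot12 (0.0493) were called. Between fed obese and fed lean livers the summed markers did not overlap for hepatocytes (42556 to 45434 against 52474 to 56911 RPKM), stellate cells (55.9 to 65.5 against 40.5 to 54.5), cholangiocytes (1.77 to 2.70 against 2.88 to 3.43) and pancreas (0.54 to 0.77 against 0.98 to 1.73). The part of these in the results was not tested.

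Acot3 and Acot4 showed no such pattern with diet. Acot3 was at 12.1, 4.94 and 8.72 RPKM in fed obese and at 21.2, 6.44 and 9.12 RPKM in fed lean mice (−0.40 ± 0.51, adjusted p = 0.711, limma). Acot4 was at 19.4, 15.7 and 17.0 and at 21.2, 14.3 and 14.9 RPKM (0.06 ± 0.22, adjusted p = 0.899). Between unfed obese and lean mice no member was called, against 5.22% of genes. Without the obese unfed library that stood apart, Acot8, the broad peroxisomal enzyme, was called in that comparison (0.28, adjusted p = 0.033). Its values were 9.15, 14.01 and 13.6 RPKM in obese and 11.1, 11.9 and 10.8 RPKM in lean unfed mice. Summed markers did not overlap between unfed obese and lean livers for hepatocytes (43681 to 51060 against 52988 to 62720 RPKM). Nor did those of endothelial cells (30.9 to 39.3 against 54.3 to 65.6) and adipocytes (0.03 to 3.96 against 0). The part of these markers was not tested.

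**Figure D3:**
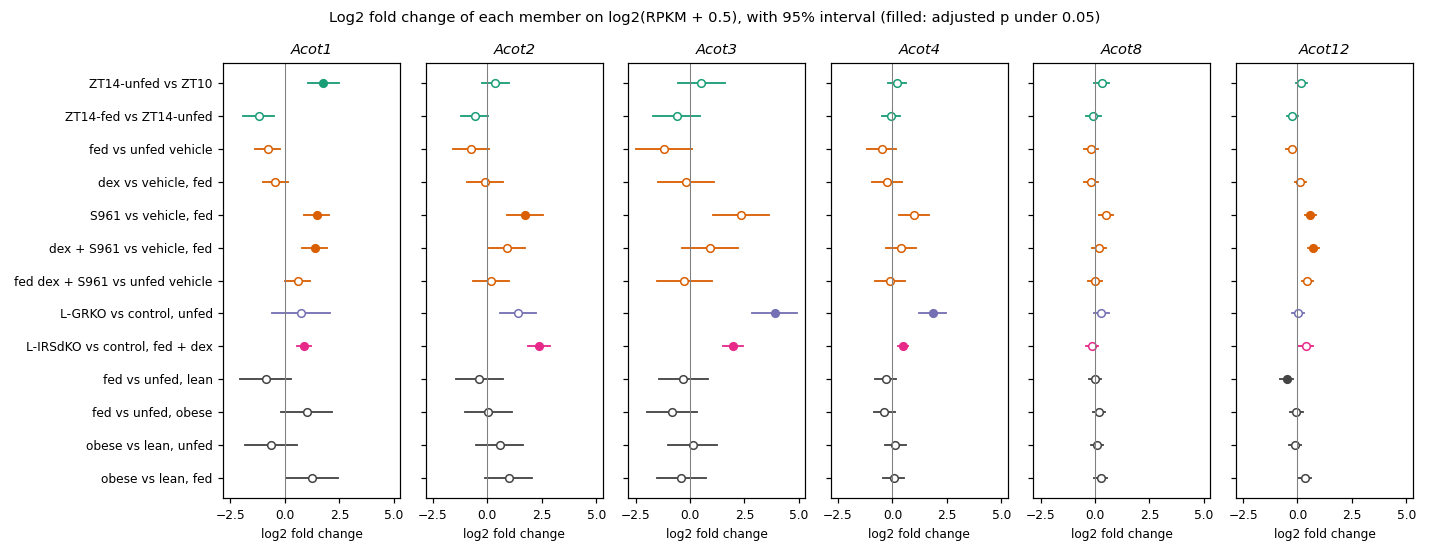
Log2 fold change of each member (1 panel each) on the log2(RPKM + 0.5) scale for 13 comparisons, with 95% intervals from limma, coloured by experiment. Points are filled where the adjusted p is under 0.05, as for Acot3 (3.90) and Acot4 (1.85) in L-GRKO livers, and no point of Acot8 is filled.

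Across the 54 libraries, with each experiment's mean removed from log2(RPKM + 0.5), Acot3 and Acot4 were the most alike pair of members (Pearson's r = 0.94, and 0.86 with each group's mean removed). The least alike were Acot8 and Acot12 (0.35). These libraries share conditions and, for the cluster genes, sequence, so the values describe likeness only. Among 10518 genes, those closest to Acot1 included Rab30 (0.88), the carnitine transporter Slc22a5 (0.85), Slc25a20 (0.85), which carries acylcarnitine into mitochondria, and Hsdl2 (0.84). Closest to Acot2 were Wrnip1 (0.86), Krt23 (0.83), Retsat (0.82), Ehhadh (0.81) and Acot3 (0.81). Closest to Acot3 after Acot4 were Acot2 (0.81), Cyp4a10 (0.81), Slc16a5 (0.76) and Elovl5 (0.76), and Acot4 followed Acot3 with Cyp4a10 (0.81), Ehhadh (0.75), Retsat (0.74) and Cyp4a32 (0.74). Acot8 was closest to Nfe2l1 (0.79) and Slc25a20 (0.77), and Acot12 to Ppp2r2d (0.83) and Rab30 (0.82).

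Binding of GR and of FOXO1, the transcription factor that insulin signalling keeps out of the nucleus, was given as lists of peaks without heights. There were 10446 GR and 8546 FOXO1 peaks, together with 83592 DNase-hypersensitive sites (DHSs). Per the paper, the GR and FOXO1 peaks are those found in unfed mice at ZT14, and occupancy was lower after feeding. DHSs were called from fed and unfed livers together. These lists do not cover binding in the injected, knockout or obese livers. Within 50 kb of the start site there were 8 GR peaks for Acot1, 5 for Acot2, 8 for Acot3, 8 for Acot4, 4 for Acot12 and 1 for Acot8. Of 9832 genes, 48.5% had at least 1 GR peak within that distance and the median gene had 0. The cluster genes share most of their peaks, since their windows overlap. FOXO1 peaks numbered 6 for Acot1, 2 for Acot2, 6 for Acot3, 6 for Acot4, 5 for Acot12 and 1 for Acot8, against a median of 1 and 51.1% of genes with at least 1.

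The position of the peaks differed along the cluster. GR peaks were centred 912 bases before the start of Acot2, and 148 bases before and 914 bases after the start of Acot1. The nearest FOXO1 peak was 45198 bases from the start of Acot2 and 23560 bases from that of Acot1. All 6 FOXO1 peaks of the cluster lay between 5320 bases before the start of Acot4 and 1166 bases after the start of Acot3. Acot3 had a FOXO1 peak 606 bases and a GR peak 726 bases after its start, and Acot12 had them 460 and 420 bases before its start. Of 14 GR peaks near the members, 9 overlapped a FOXO1 peak by at least 1 base, which is 64.3% against 48.8% of all GR peaks. Conversely 9 of 12 FOXO1 peaks near the members overlapped a GR peak, 75.0% against 59.7%.

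Sequences of 3 GR peaks that hold a GR motif, near Acot2, Acot1 and Acot4, are printed 5′ to 3′ on the plus strand of mm9. Motif matches are in capitals. The motifs searched on both strands were the half-site AGAACA and the full GR element, GNACA and TGTNC with 3 bases of any kind between them, which can overlap each other.
GR peak before Acot2 (chr12:85327809-85327988): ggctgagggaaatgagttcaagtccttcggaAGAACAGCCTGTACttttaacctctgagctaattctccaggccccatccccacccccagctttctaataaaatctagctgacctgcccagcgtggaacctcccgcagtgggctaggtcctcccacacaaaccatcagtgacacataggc
GR peak before Acot1 (chr12:85350210-85350389): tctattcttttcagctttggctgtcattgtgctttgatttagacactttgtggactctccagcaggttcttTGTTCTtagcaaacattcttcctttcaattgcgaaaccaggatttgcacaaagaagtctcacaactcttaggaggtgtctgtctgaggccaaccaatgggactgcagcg
GR peak before Acot4 (chr12:85373869-85374048): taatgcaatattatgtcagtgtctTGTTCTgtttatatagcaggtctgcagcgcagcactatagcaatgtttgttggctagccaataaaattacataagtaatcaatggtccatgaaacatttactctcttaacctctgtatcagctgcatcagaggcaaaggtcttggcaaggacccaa
The peak before Acot2 holds a full element, which overlaps a half-site, and the other 2 hold a half-site on the minus strand. All 3 lie between genes, the peak before Acot2 overlaps 0 DHSs, and the peak before Acot4 also overlaps a FOXO1 peak. Neither motif was found in the GR peaks centred 726 and 1134 bases after the start of Acot3. The same held for those 3838 bases before and 4054 bases after the start of Acot4, and 420 bases before that of Acot12.

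A full element was found in 1 of the 14 GR peaks near the members (7.14%) and in 7.80% of all GR peaks. The half-site was found in 9 of 14 (64.3%) and in 27.7% of all GR peaks of the same 180 bases. The FOXO motif TGTTTAC was found in 0 of 12 FOXO1 peaks near the members and in 18.8% of all FOXO1 peaks. A direct repeat of the kind PPARα binds, searched as AGGTCA repeated after 1 base of any kind, was found in 0 of these 14 GR peaks and in 0.077% of all. These matches describe letters only.

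**Figure D4:**
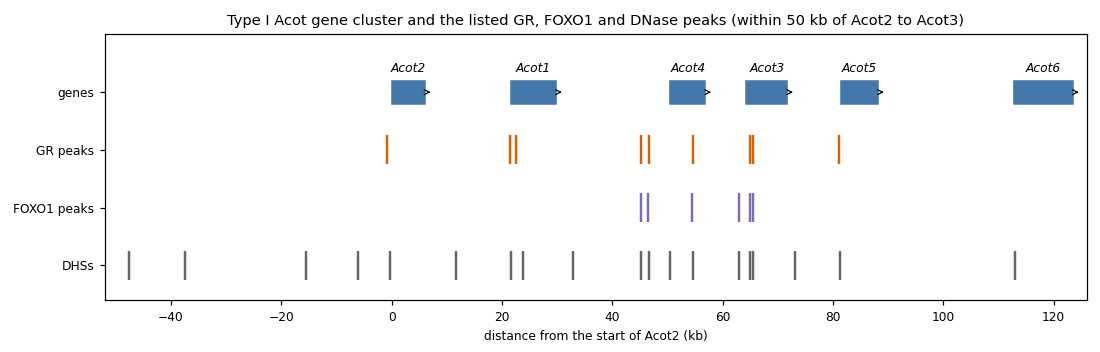
Map of the Acot gene cluster on chromosome 12, with genes as boxes, arrows for the direction of transcription and vertical ticks for the centres of GR peaks, FOXO1 peaks and DHSs, against distance in kb from the start of Acot2. The 6 FOXO1 peaks lie around Acot4 and Acot3, while GR peaks also lie at Acot2 and Acot1.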

How the data were processed

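Livers were profiled by RNA-seq in 54 libraries of a series of 90 samples. Reads were aligned by the authors with STAR to mm9, and the deposited RPKM values, 1 row per RefSeq identifier, were used as they stood. Of 35707 identifiers 35402 had a symbol. GR, FOXO1 and DNase peaks were deposited as positions only, called by the authors with HOMER. DHSs were called on the combined reads, and GR and FOXO1 peaks are those that overlapped between replicates of unfed livers. Read depth was estimated from the smallest steps in the RPKM values where these gave a reliable estimate (NRF, injected and obesity experiments), and precision is set mainly by the 2 to 4 libraries per group. Replicates are separate samples per the labels, and p-values measure the spread between these samples.

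Tests used limma 3.58.1 (R 4.3.3) with a variance trend on log2(RPKM + 0.5) for genes whose mean reached 0.5 RPKM, each experiment fitted apart, with Benjamini-Hochberg adjustment over all genes tested and a call at an adjusted p under 0.05. Fold changes on this scale understate changes of low genes. The procedure was tested on simulated data. Named genes were the members, the called genes of listed pathways, and genes among the 5 most correlated with each member. Some items are not reported here. The members and lists were chosen with earlier results of these data known. Genome sequences came from mm9, and gene positions, start sites and transcripts from its GENCODE annotation. RefSeq served to map row identifiers to symbols. Shared sequence was counted in windows of 50 bases. Alternatives covered the pseudocount, filter, scaling, identifiers, threshold, samples fitted, replicate block, library series and each library left out. ChIP-seq and DNase-seq samples without peak lists were not analysed here.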

Additional observations from a re-analysis of the deposited data

Results flagged for a closer look

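Of 54 combinations of member and group with 4 libraries, 2 had a library far from the others by Dixon's 95% criterion, and chance alone flags about 1 in 20 such groups. Acot12 was at 60.4 RPKM in the first GR fl/fl AAV-GFP library, above 46.4 to 47.5 RPKM in the other 3. Acot12 was at 84.9 RPKM in the first L-IRSdKO library, below 112 to 115 RPKM in the other 3.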

How the results depend on the processing

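Counts of called members moved in 25 of 305 alternative values. Small changes, such as from 3 to 4 for S961 and from 2 to 3 for L-GRKO with the replicate block, were not counted as moved. None of the 1663 alternative values of single members turned a called direction. With a threshold of 0.01 the counts were 0 for ZT14-unfed against ZT10, 1 for S961 and 0 for the meal in lean mice. Without a filter the count for ZT14-unfed against ZT10 was 0, and with genes kept from a 2 RPKM mean it was 1 for ZT14-fed against ZT14-unfed. Fitting only the groups compared gave 0 for S961, 1 for dex + S961 against unfed vehicle, 2 for the meal in lean mice and 2 for obese against lean fed mice. For S961, a term for the library series gave 5 and the first series alone, an alternative chosen after seeing the data, gave 0. For dex + S961 against unfed vehicle the count was 1 with median-ratio scaling, with the series term and with the replicate block.

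Leaving out 1 library gave 0 to 1 members for ZT14-unfed against ZT10, 0 to 2 for ZT14-fed against ZT14-unfed, 1 to 5 for S961, 2 to 2 for dex + S961, 2 to 3 for L-GRKO, 4 to 5 for L-IRSdKO, 0 to 1 for the meal in lean mice, 0 to 1 for obese against lean unfed mice and 0 for all other comparisons. In the NRF comparisons such a fit leaves a lone library in a group, whose own spread is not measured. In no comparison did all same-numbered samples correlate above 0.1 in their deviations, so replicate numbers did not pair all samples. The fourth libraries of the injected groups, those with the separate range of library numbers, did share deviations (r from 0.493 to 0.605). Other same-numbered injected libraries had r from −0.12 to 0.316. The main fit holds no term for this. A replicate block gave 4 members for S961, adding Acot3 (adjusted p = 0.0297, limma), and 3 for L-GRKO, adding Acot2 (0.0446). Apart from dex + S961 against unfed vehicle, where Acot12 was called with the block (0.0304), the other counts were as without it. Median-ratio scaling moved the split of all called genes in L-GRKO from 519 higher and 259 lower to 294 and 369, in S961 from 105 and 108 to 141 and 60, and for the meal in lean mice from 1841 and 832 to 1169 and 1184, and left the members' calls there as they were. The cause of these shifts was not tested. Acot2 had the fewest estimated reads of the members in the injected mice (a median of 38 per library).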
